A study of Neogale vison with 6 samples.

Results

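BLK and FAM167A are adjacent genes, and both were almost without reads in untreated Mv1Lu cells and clearly present after cholesterol depletion (CD). They are described here together with 4 further kinases of the SRC family, SRC, FYN, YES1 and LYN. These 6 genes are the rows of the count table that carry the 6 symbols, of 24526 genes in all. BLK and FAM167A were selected for the difference between CD and control in these same 6 libraries, so their own contrast is given as a description without a test. SRC, FYN, YES1 and LYN were included as members of the family, with earlier results of these data known.

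Mv1Lu cells are a line of epithelial cells established from the lung of a mink. RNA from 3 untreated (control) and 3 CD samples was sequenced to learn how gene expression responds when cells are kept short of cholesterol. CD meant 16 h with 50 μM lovastatin, an inhibitor of cholesterol synthesis, plus 50 μM mevalonate, in medium with 10% lipoprotein-deficient serum (LPDS), which supplies little cholesterol. Control cells received neither compound, and because the serum differed as well, the contrast covers the treatment as a whole in 1 cell line.

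SRC family kinases are tyrosine kinases that are anchored to the inner side of cell membranes by lipid groups and relay signals from integrins, growth factor receptors and immune receptors. CSK keeps them inactive by phosphorylating a tyrosine in their tail, and several phosphatases remove that phosphate. SRC, FYN and YES1 are made in most tissues, whereas BLK is best known from B lymphocytes, where it acts below the B cell receptor, and LYN, LCK and FGR are mainly kinases of blood cells. FAM167A is a largely uncharacterized protein that has been linked to the noncanonical NF-κB pathway.

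The libraries held 13473820 to 18633764 reads counted on genes, and 29.3 to 47.2% of the reads in the table were not assigned to a gene. With the quasi-likelihood test of edgeR, at a false discovery rate (FDR) under 0.05, 47.7% of the 12148 genes tested were called, 24.8% higher and 22.9% lower in CD, so a called gene is common in this contrast. The median log2 fold change over these genes was 0.06 and the median SE 0.18. CD replicate 3 stood apart from the other libraries, with reads on 15884 genes where they had 14869 to 15109. Without it, 7222 genes were called in place of 5800, and results that rest on it are given with and without it.

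No read of BLK was counted in any of the 3 control libraries. CD replicates 1, 2 and 3 held 54, 67 and 33 reads. A count of 0 allows a level of up to 0.165 to 0.217 CPM (the read count scaled to the size of its library) in a control library, taking 3 counts as the floor. In CD the level was 3.32 CPM in replicate 1, with an exact 95% interval of 2.49 to 4.33, 4.11 CPM (3.19 to 5.22) in replicate 2, and 2.38 CPM (1.64 to 3.34) in replicate 3. These intervals cover counting error only. The groups did not overlap, as was the case for 58.0% of all genes tested, and the mean in CD was 3.27 CPM ± 0.868 (SD, n = 3), or 3.71 CPM without replicate 3. Set against the floor of 3 counts over the control group, BLK was 50.8-fold higher in CD, a ratio that leaves out the counting error of the CD reads.

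FAM167A was nearly as low in untreated cells and reached a higher count in CD. Control replicates 1, 2 and 3 held 1, 0 and 2 reads, and the CD replicates 182, 168 and 159. The level was 0.0606 CPM ± 0.0559 (SD, n = 3) in control and 11.0 CPM ± 0.60 (SD, n = 3) in CD. The groups did not overlap, and the 3 CD libraries, at 11.2, 10.3 and 11.5 CPM, lay close together. The ratio of the groups was 168, and the 3 control reads leave it a counting interval of 57.1 to 816. The fitted log2 fold change of 7.23 was 6.76 without control replicate 2 and 7.95 without control replicate 3. FAM167B, the only relative of FAM167A on the list, had 0 counts in all 6 libraries. In bulk RNA, more cells with a transcript and more transcript per cell cannot be told apart, here or for any gene that follows.

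The balance between the genes of the pair varied among the CD libraries, at the edge of the counting error. BLK supplied 22.9% of the pair's reads in CD replicate 1 (exact 95% interval 17.7 to 28.8), 28.5% in replicate 2 (22.8 to 34.7) and 17.2% in replicate 3 (12.1 to 23.3). Over the 3 libraries 663 reads fell on the pair, 23.2% of them on BLK (20.1 to 26.6). Replicate 3 had the lowest BLK count and the highest FAM167A level, and its interval overlapped that of replicate 2 only at the edge. FAM167A thus gave 3.31 reads for each BLK read, ranging from 2.51 to 4.82 by library. Gene lengths of the assembly used by the authors were not at hand, so this is a ratio of reads and not of transcript levels.

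**Figure D1:**
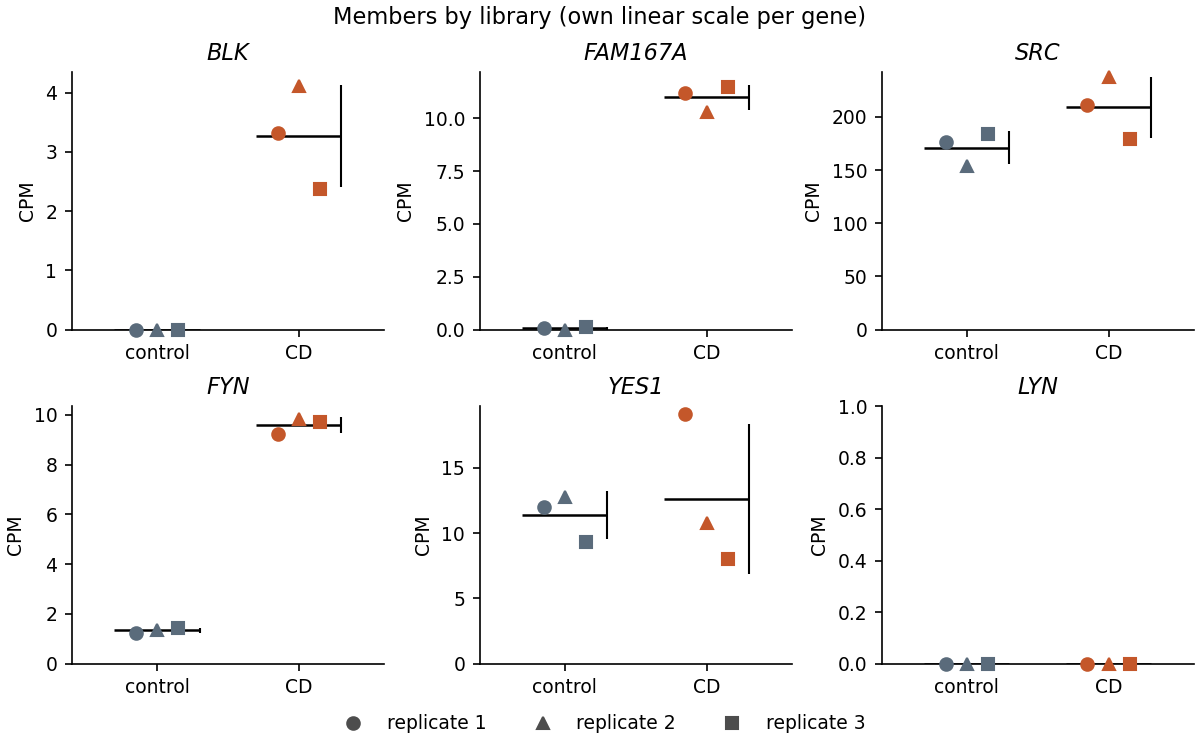
Level in CPM (vertical axis, linear from 0, with its own scale for each gene) of the 6 genes in each of the 3 control and 3 CD libraries, with the replicate shown by symbol, the mean as a horizontal line and the SD as a vertical line. BLK, FAM167A and FYN do not overlap between the groups, SRC and YES1 do, and LYN is at 0 counts throughout.

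Among the members included for their family, FYN rose, SRC and YES1 did not pass the test, and LYN had no reads. With 1 of the 3 tested kinases called higher, against 24.8% of all genes, the count itself does not set the family apart.

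FYN, a kinase of integrin and T cell receptor signaling, held 17, 19 and 26 reads in the control libraries. It held 150, 160 and 135 in CD. The level went from 1.34 CPM ± 0.111 to 9.59 CPM ± 0.322 (SD, n = 3 each), and all 3 CD libraries, at 9.22 to 9.82 CPM, were far above the highest control at 1.43 CPM. This was a log2 fold change of 2.83 (SE 0.20, edgeR FDR = 3.74e-06), or 7.09-fold, and FYN was called higher under each of the 14 alternative settings tried. Like BLK it started low, but unlike BLK it was measurable in each control library.

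SRC is the family's founding member. Its counts were 2459, 2133 and 3331 in control and 3439, 3856 and 2489 in CD. The levels were 171 CPM ± 15.3 and 209 CPM ± 28.7 (SD, n = 3 each), and the groups overlapped because CD replicate 3, at 179 CPM, lay below control replicate 3, at 184 CPM. The log2 fold change was 0.29 (SE 0.13) and did not pass the threshold (edgeR FDR = 0.097). Without CD replicate 3 it was 0.35 and called (edgeR FDR = 0.00488).

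YES1, a close relative of SRC that is also widely expressed, held 168, 177 and 169 reads in control and 310, 176 and 111 in CD. CD replicate 1, at 19.1 CPM, was above every control library and CD replicate 3, at 8.0 CPM, below every one. The log2 fold change of 0.16 (SE 0.29, edgeR FDR = 0.691) had an error larger than itself. Without CD replicate 1 it was -0.26 (edgeR FDR = 0.351), so these libraries give YES1 no direction.

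LYN, LCK and FGR had 0 counts in all 6 libraries, and at this depth a level of up to 0.165 to 0.217 CPM per library would have gone undetected. Unlike these 3 kinases, BLK had reads in every CD library. FRK, a related kinase of epithelial cells, had 75, 97 and 71 reads in control and 56, 38 and 46 in CD. Its log2 fold change was -0.84 (SE 0.27, edgeR FDR = 0.0265), opposite in sign to FYN. The call of FRK was lost without control replicate 1 (FDR = 0.0665), control replicate 2 (FDR = 0.117) or CD replicate 2 (FDR = 0.0892) in the same edgeR test. SRMS, another relative, had 10 reads in all and was not tested, and PTK6 was not found by its symbol.

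Counting the other kinases against SRC within each library removes any difference in depth. For each 100 SRC reads there were 0.691, 0.891 and 0.781 FYN reads in control and 4.36, 4.15 and 5.42 in CD. The means were 0.788 ± 0.0999 and 4.64 ± 0.683 (SD, n = 3 each), a ratio of 5.90, and the exact two-sided permutation test gave p = 0.1, the smallest value that 3 against 3 libraries allow. For YES1 the figures were 6.73 ± 1.61 and 6.01 ± 2.60 (SD, n = 3 each, exact permutation p = 0.8). BLK made up 1.57, 1.74 and 1.33 reads per 100 SRC reads in CD and none in control. Of all reads on SRC, YES1, FYN and BLK, BLK took 1.19 to 1.57% in the CD libraries, and the part taken by FYN went from 0.643 to 0.816% in control to 3.76 to 4.88% in CD.

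The regulators of SRC family kinases, taken from lists of general knowledge, made up lists of few tested genes. Of 4 tested genes that restrain the kinases, 1 was called higher and 1 lower, 50.0% in all beside 47.7% of all genes, and the list had its median log2 fold change at -0.16 against 0.06 over all genes. Without CD replicate 3 the list had 1 higher and 2 lower, in a fit that called 58.6% of all genes, and it had 0 higher and 1 lower when control replicate 1, control replicate 3, CD replicate 1 or CD replicate 2 was left out, in fits that called 35.9 to 48.6%. DOK1, an adaptor that dampens tyrosine kinase signaling, fell from a control mean of 77.2 ± 5.15 CPM to 36.0 ± 4.48 CPM in CD (SD, n = 3 per group, log2 -1.10, SE 0.13, edgeR FDR = 1.05e-04), and its groups did not overlap. CBLB, a ubiquitin ligase that marks active kinases for breakdown, was called higher at 0.68 (SE 0.24, edgeR FDR = 0.0419), but 7 of the 14 alternatives lost this call. CSK itself had a log2 fold change of -0.22 (SE 0.11, edgeR FDR = 0.14), and without CD replicate 3 it was called lower at -0.26 (FDR = 0.046). The lipid raft adaptor PAG1, which brings CSK to the membrane, had 3 reads in control and 2 in CD and was not tested.

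Of 6 tested phosphatases listed with the family, 3 were called higher and none lower. The list was not split into phosphatases that activate and those that restrain the kinases, so the count gives no direction for kinase activity. This is 50.0% beside 47.7% of all genes, and the median log2 fold change was 0.38. PTPN12, which also acts on focal adhesion proteins, rose from a control mean of 18.2 ± 0.662 CPM to 39.9 ± 4.91 CPM in CD (SD, n = 3 per group, log2 1.13, SE 0.14, edgeR FDR = 1.38e-04). PTPRA, a receptor phosphatase that acts on the tail of SRC and FYN, rose from a control mean of 82.8 ± 1.45 CPM to 118 ± 5.81 CPM in CD (SD, n = 3 per group, log2 0.51, SE 0.10, edgeR FDR = 0.0028). Neither gene overlapped between the groups, and 58.0% of all genes tested did not either. PTPN1, a phosphatase of the endoplasmic reticulum, was called higher at 0.61 (edgeR FDR = 0.022), a call that 4 of the 14 alternatives lost. Without CD replicate 1 the list had 2 higher and 1 lower, in a fit that called 48.6% of all genes.

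The substrates of the family made the longest list. Of 24 tested, 9 were called higher and 2 lower, 45.8% in all beside 47.7% of all genes tested, and the median log2 fold change was 0.28. Without CD replicate 3, 15 of 25 tested were higher and 4 lower, in a fit that called 29.3% of all genes higher and 29.2% lower.

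NEDD9, a scaffold of focal adhesions that is phosphorylated by SRC and FYN, led the list. It held 23, 17 and 35 reads in control and 387, 308 and 158 in CD. All 3 CD libraries, at 11.4 to 23.8 CPM, lay above the controls, of which the highest was at 1.93 CPM. The log2 fold change was 3.47 (SE 0.31, edgeR FDR = 1.68e-05). PTK2B, the focal adhesion kinase relative PYK2, rose from a control mean of 8.75 ± 0.961 CPM to 33.5 ± 4.21 CPM in CD (SD, n = 3 per group, log2 1.93, SE 0.17, edgeR FDR = 1.23e-05). PTK2, the focal adhesion kinase itself, had a log2 fold change of -0.24 (SE 0.10) and was not called (edgeR FDR = 0.0825), except without CD replicate 3 (-0.30, FDR = 0.0174). EPS8, an actin regulator downstream of growth factor receptors, rose by 1.36 on the log2 scale (SE 0.20, edgeR FDR = 3.24e-04). CDCP1, a membrane protein that docks SRC family kinases, fell from a control mean of 25.9 ± 2.49 CPM to 8.15 ± 3.77 CPM in CD (SD, n = 3 per group, log2 -1.66, SE 0.31, edgeR FDR = 0.00162). None of NEDD9, PTK2B, EPS8 and CDCP1 overlapped between the groups, and 58.0% of all genes tested did not either. These 4 were named as the called genes with the largest change, which favors such a separation. Of these only CDCP1 was lower in CD.

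**Figure D2:**
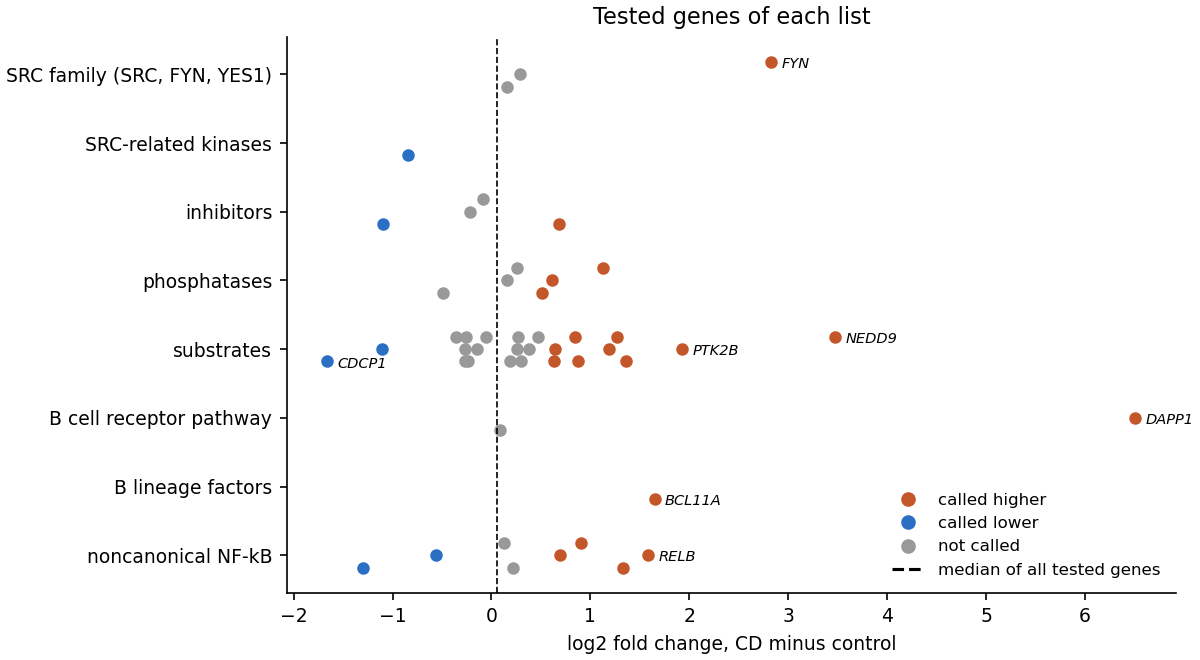
Log2 fold change, CD minus control (horizontal axis), of each tested gene of 8 gene lists (rows), colored by the edgeR call at an FDR under 0.05, with genes at 1.5 or more in size named and vertical offsets only to separate points. BLK and FAM167A are left out because they were selected on this contrast. DAPP1 reached the count filter only through CD. The points of the inhibitors, phosphatases, substrates and noncanonical NF-κB genes lie on both sides of the dashed line at the median of all tested genes, 0.06.

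Most genes of the B cell receptor pathway had next to no reads. Of its 12 listed genes, 2 had enough reads to be tested, and the other 10 had at most 11 reads each over all 6 libraries. These 10 include the receptor chains CD79A (0 reads) and CD79B (2 reads), and the kinases SYK (1 read) and BTK (11 reads), which act after BLK in B cells. The genes with more reads were DAPP1 and PLCG2. DAPP1, an adaptor that binds the lipid products of phosphoinositide 3-kinase and is phosphorylated by SRC family kinases, held 1, 4 and 1 reads in control and 205, 195 and 187 in CD. It reached the count filter only through the CD libraries, which favors a difference, and its fitted log2 fold change of 6.51 (SE 0.37) is given as a description. It was 7.49 without control replicate 2 and 6.07 without control replicate 3. PLCG2, a phospholipase of the same pathway, had a mean of 107 ± 7.78 CPM in control and 113 ± 17.0 CPM in CD (SD, n = 3 per group) and did not pass the test (log2 0.09, SE 0.13, edgeR FDR = 0.626).

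The transcription factors of the B lineage were low, and 1 of the 8 found was tested. PAX5, which sets B cell identity, had 0 reads in all 6 libraries. BCL11A, a zinc finger repressor needed for B cell development that is also active in other tissues, rose from a control mean of 1.08 ± 0.146 CPM to 3.38 ± 0.0645 CPM in CD (SD, n = 3 per group, log2 1.65, SE 0.23, edgeR FDR = 2.62e-04). The 3 CD libraries, at 3.31 to 3.44 CPM, did not overlap with control. The untested factors with more than 2 reads were IKZF3, with 18 in control and 4 in CD, SPI1, with 20 and 38, and POU2F2, with 15 and 29.

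The noncanonical NF-κB pathway, to which FAM167A has been linked, had all 8 listed genes tested, with 4 called higher and 2 lower. This is 75.0% beside 47.7% of all genes, and the median log2 fold change was 0.46. The counts in each direction were the same without any 1 library, in fits that called 35.9 to 58.6% of all genes. RELB and NFKB2 encode the subunits of the factor that the pathway releases. RELB rose from a control mean of 25.2 ± 2.58 CPM to 75.4 ± 11.2 CPM in CD (SD, n = 3 per group, log2 1.58, SE 0.15, edgeR FDR = 2.38e-05). NFKB2 rose from a control mean of 46.8 ± 4.88 CPM to 117 ± 9.98 CPM in CD (SD, n = 3 per group, log2 1.33, SE 0.13, edgeR FDR = 2.43e-05). MAP3K14, the kinase that switches the pathway on, fell from a control mean of 20.2 ± 2.14 CPM to 8.23 ± 0.441 CPM in CD (SD, n = 3 per group, log2 -1.30, SE 0.16, edgeR FDR = 1.38e-04). BIRC3, a ubiquitin ligase that takes part in the breakdown of MAP3K14, rose by 0.91 on the log2 scale (SE 0.11, edgeR FDR = 9.99e-05). None of these 4 genes, named for the largest changes, overlapped between the groups, and 58.0% of all genes tested did not either. The subunits and the kinase upstream of them changed in opposite directions.

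Markers of other cell types were read beside these results. Of 10 B cell markers, 8 were found, 4 of them at 0 in every library and none above 2 reads in all. Their summed level was 0 in control and 0.0615 to 0.144 CPM in CD, where BLK alone had 2.38 to 4.11 CPM. Of the other leukocyte markers, 6 were tested, 4 of them called higher and 1 lower, where 24.8% and 22.9% of all genes were. Their summed level was 28.3 to 31.6 CPM in control and 35.9 to 45.0 CPM in CD. CD68, a lysosomal protein abundant in macrophages, rose by 1.85 on the log2 scale (SE 0.18, edgeR FDR = 2.49e-05), and CORO1A, an actin-binding protein of leukocytes, fell from 18.5 ± 1.42 to 9.62 ± 1.31 CPM (SD, n = 3 per group, log2 -0.94, SE 0.17, edgeR FDR = 0.00129). CSF1R and CD14, also among the 4, reached the count filter only through the CD libraries, which favors a difference. The count of 4 is therefore no result about the list, and CSF1R and CD14 are given by their reads. They held 37 and 7 reads in control and 168 and 38 in CD. Another myeloid gene, TYROBP, was called higher (log2 0.83, edgeR FDR = 0.0185), a call lost without control replicate 1 (FDR = 0.0615) or 3 (FDR = 0.0808), while ITGAM and FCER1G had 1 read each over all libraries. PTPRC, which marks all leukocytes, had 1 read in all 6 libraries together, so this defining marker was at or near 0 in both groups. The part of the remaining leukocyte markers in the values above was not tested.

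Of the epithelial markers, 6 were tested, with 1 higher and 2 lower (50.0% called, beside 47.7% of all genes). The 1 higher, CLDN4, passed the count filter only through CD, so this share is no result about the list. Without CD replicate 3, ESRP1 was called too (log2 1.47, edgeR FDR = 0.00315, against 0.0698 with all libraries). The list then had 2 higher and 2 lower, in a fit that called 58.6% of all genes. It had the same counts without control replicate 1 (36.3% of all genes called), and 1 higher and 3 lower without CD replicate 1 (48.6%). The summed level, mostly KRT19, went from 1100 to 1220 CPM in control to 587 to 672 CPM in CD. KRT19, a keratin of simple epithelia, was abundant in every library, and its control mean of 936 CPM ± 66.9 compared with 458 CPM ± 77.1 for CD (SD, n = 3 per group, log2 -1.03, SE 0.14, edgeR FDR = 2.74e-04). The tight junction gene CLDN1 fell by 2.42 on the log2 scale (SE 0.28, edgeR FDR = 8.14e-05). CLDN4, another claudin, went from 27 reads in control to 326 in CD and reached the count filter only through the CD libraries. KRT8 and KRT18 were not found by symbol. EPCAM and CDH1, which define many epithelia, had only 7 and 8 reads in control and 2 and 18 in CD. CLDN7, with 4 and 1 reads, and ESRP1, with 20 and 49, were also low. Mean levels of TJP1 were 200 CPM in control and 162 CPM in CD, and those of OCLN 6.73 and 7.02 CPM. The markers thus differed, and the epithelial label of the line is that of its description, not a result here. Of 5 fibroblast markers tested, 4 were lower, beside 22.9% of all genes, among them COL3A1 (-1.72, SE 0.17, edgeR FDR = 2.50e-05), and their summed level was 310 to 387 CPM in control and 183 to 232 CPM in CD. Without any 1 of the control libraries 6 were tested, with 1 higher and 3 lower, in fits that called 35.9 to 38.6% of all genes. The fibroblast genes LUM, with 7 reads in control and 35 in CD, and DCN, with 3 and 15, were too low to be tested. Of 2 endothelial markers tested, TEK was lower (-1.08, SE 0.17, edgeR FDR = 5.27e-04), while VWF, with 5 reads in control and 56 in CD, reached the count filter only through CD. The summed endothelial level, 206 to 221 CPM in control and 75.9 to 124 CPM in CD, was almost wholly that of TEK, and PECAM1, untested, went from 0 reads to 11. How these shifts bear on BLK or FAM167A was not tested.

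In the mink RefSeq annotation of assembly ASM_NN_V1, which is not the assembly of the count table and was used only for gene order, FAM167A and BLK followed each other with 0 genes between them, as they do in the human genome. Of the 6 nearest named genes on either side, 8 of 12 were found in the count table by symbol and 7 were tested, while 3 entries without a symbol among them were passed over. Of these, 1 was called higher, 2 lower and 4 neither, beside 24.8% higher and 22.9% lower among all genes.

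None of the 4 nearest tested neighbors was called higher. On the side of FAM167A, MTMR9, a member of the myotubularin family, held 24, 21 and 39 reads in control and 94, 27 and 24 in CD, with 1 high CD library and overlapping groups (log2 0.76, SE 0.47, edgeR FDR = 0.203). XKR6 (0.17, SE 0.28, edgeR FDR = 0.659) was not called either. On the side of BLK, GATA4, a transcription factor of heart and endoderm, fell from a control mean of 84.8 ± 9.44 CPM to 57.8 ± 7.83 CPM in CD (SD, n = 3 per group, log2 -0.55, SE 0.14, edgeR FDR = 0.00908), a call lost without control replicate 1 (FDR = 0.0502). NEIL2, a DNA repair enzyme, was not called (0.09, SE 0.16, edgeR FDR = 0.666).

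FDFT1, which encodes squalene synthase and so catalyzes the first committed step of sterol synthesis, lay 3 genes from BLK and was the only tested neighbor called higher. Its levels were 106, 111 and 120 CPM in control and 512, 516 and 487 CPM in CD, without overlap. The log2 fold change was 2.17 (SE 0.11, edgeR FDR = 4.95e-07), or 4.50-fold. Beyond it, CTSB, a lysosomal protease, was not called (-0.03, edgeR FDR = 0.856). Farther out on the other side, PINX1, a telomerase inhibitor, was called lower at -0.50 (SE 0.19, edgeR FDR = 0.0481), and 8 of the 14 alternatives lost this call, including the one with replicate number as a block (FDR = 0.0629).

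**Figure D3:**
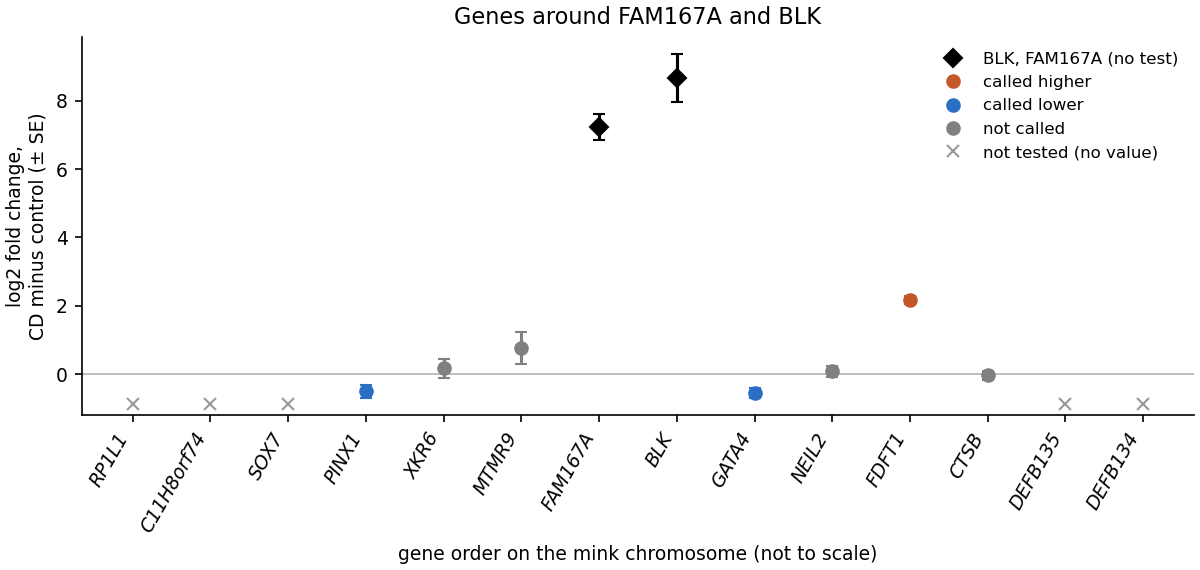
Log2 fold change, CD minus control, with its SE (vertical axis) of FAM167A, BLK and the 6 nearest named genes on each side, in the order of the RefSeq annotation and not to scale (horizontal axis). The values of BLK and FAM167A, 8.66 and 7.23, are fitted values that depend on the prior count and stand above FDFT1 at 2.17. No test of them is reported, and their SE bars are back-calculated from the statistic of the fit. Crosses mark genes with no value, placed at the lower edge.

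BLK and FAM167A belonged to a small group of genes that were nearly without reads in control. Among the tested genes, 25 had at most 3 reads over the 3 control libraries, 23 of them with a symbol. Such a gene passes the filter on low counts only through its CD reads, so that all 25 differ follows from their choice and is no result. Their reads over the 3 CD libraries ranged from 36 to 509, with a median of 61. FAM167A was the first by this count and BLK the fourth, with 154 reads, and BLK and the amino acid oxidase gene DAO were the only 2 with 0 control reads. Between them stood CREB3L3, a membrane-bound transcription factor of liver and gut, with 398 reads and STMN4, a stathmin that binds tubulin, with 317. The chemokine CCL4 had 122.

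**Figure D4:**
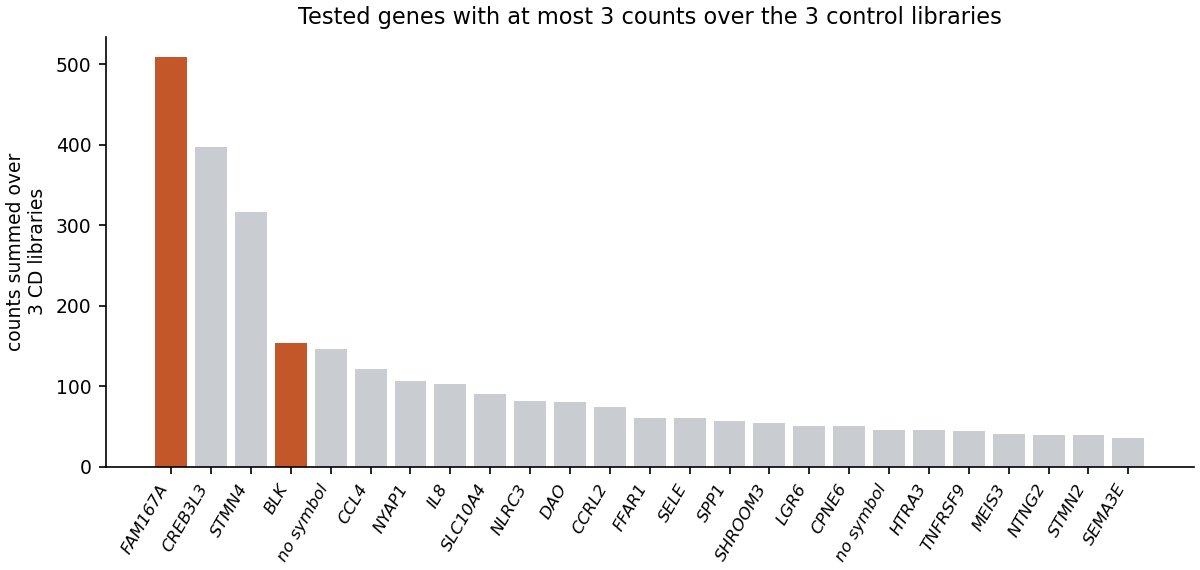
Reads summed over the 3 CD libraries (vertical axis, linear from 0) for each of the 25 tested genes with at most 3 reads over the 3 control libraries, in falling order. FAM167A, at 509, and BLK, at 154, are in orange, and the median is 61.

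The genes with the pattern most like that of BLK over the 6 libraries, by Pearson correlation of log2 CPM, were NTNG2, BMF, ZNF34, DAO and DUSP4, all at an r of about 0.999. Those most like FAM167A were CHST1, RAB44, AADAT, LRRN4CL and ITGA7, also at about 0.999. Since the libraries form 2 groups, r here mostly reflects the step between control and CD. An r above 0.95 was reached by 9.82% of 12147 genes with BLK, by 10.1% with FAM167A and by 10.6% with FYN. BLK and FAM167A had an r of 0.99 with each other. The closest genes spanned log2 fold changes from 1.28 (ZNF34, SE 0.17) to 4.93 (LRRN4CL, SE 0.20) among those that had reads in each control library, so a like pattern did not mean a like size of change.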

How the data were processed

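RNA-seq counts of 3 control and 3 CD libraries were analysed, grouped by the sample labels. The labels do not say whether replicates came from separate cultures, so p-values measure only the spread between these samples. According to the methods and the submitters' processing notes, the authors prepared libraries from poly(A) RNA with Nextera XT, trimmed reads with fastp 0.20.1, aligned them with STAR 2.7.2a to the mink assembly NNQGG.v01 and used DESeq2 1.30.1 in R 4.0.3. The counting program and its use of strand are not given in the sources used here, so overlapping or antisense genes are uncertain. The authors deposited raw read counts per gene, which were used as deposited, and normalized values, which were not used because their gene identifiers do not follow the count table. The rows of unassigned reads were left out of library sizes.

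Genes were filtered with filterByExpr (minimum count 10, minimum total count 15), scaled by TMM and tested with glmQLFit (robust) and glmQLFTest of edgeR 4.0.16 in R 4.3.3, with condition as the only term and Benjamini-Hochberg adjustment over all 12148 genes, called under 0.05. Of these genes, 2059 had no symbol. Reported fold changes use a prior count of 0.125, and log2 CPM for correlations a prior count of 2. CPM are counts scaled to the TMM-adjusted library size by edgeR. Intervals for counts are exact Clopper-Pearson intervals at 95%, and the floor is 3 counts. Permutation tests and intervals were computed with scipy 1.17.1. The procedure was tested on simulated data.

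The members and gene lists were chosen with earlier results of these data known. Named were the 6 genes, other SRC family and SRC-related kinases (1 listed gene is not reported here), from each further list up to 4 called genes with the largest change (or the highest CPM where none was called), 6 named neighbors per side, the 5 genes most like BLK and FAM167A, and the 5 with a symbol, at most 3 control reads and the most CD reads. CSK, PAG1, PTK2, PTPRC, EPCAM, CDH1, CLDN7, ESRP1, TJP1, OCLN, TYROBP, ITGAM, FCER1G, LUM, DCN, PECAM1, IKZF3, SPI1, POU2F2, PAX5, CD79A, CD79B, SYK, BTK, PLCG2, DAO in its group, and the adjacent pairs in the closing section were named after their values were seen. Genes listed without values that pass the rule are covered by the counts.

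The 14 alternatives were DESeq2 1.42.0, limma-voom (limma 3.58.1), DESeq2 size factors, upper-quartile or total-count scaling, the replicate number as a block, no filter, 50 counts at least in 3 libraries, and each library left out. A prior count of 2 was also tried. Counts per list and over all genes without each library were added after seeing the data. Same-numbered replicates did not deviate together (r = -0.024, -0.329 and -0.185), so the numbers were not taken as pairs. Promoter sequences and motifs were not analysed here.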

Additional observations from a re-analysis of the deposited data

How the results depend on the processing

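Across the 14 alternatives the number of genes called ranged from 4410 (without control replicate 3) to 7222 (without CD replicate 3), with 5676 under DESeq2 and 5408 with the replicate block. FYN was called higher in each of them, between 2.76 and 2.88 on the log2 scale with a library left out. The number of SRC family kinases called was 1 to 2 with a library left out, because SRC was called without CD replicate 3 (0.35), its range being 0.16 to 0.35. YES1 ranged from -0.26 to 0.36 with a library left out and reversed without CD replicate 1. The fitted log2 fold changes of BLK and FAM167A depend on the prior count, falling from 8.66 to 4.72 and from 7.23 to 5.83 with a prior count of 2. Limma-voom gave 6.62 and 7.08, and DESeq2 8.06 and 7.38. The causes of these shifts were not tested, apart from the prior count, which enters the fold change directly.

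Of 1001 values for 72 other genes, 925 kept direction and call, 38 lost the call, 20 gained it and 18 changed sign, the last in genes not called either way. With 1 library left out, their ranges were -0.73 to 0.27 for CBL (0.06 without control replicate 3), -0.39 to 0.45 for PTPN11, -0.24 to 0.15 for CTNND1, -0.01 to 0.17 for PLCG2, -0.10 to 0.39 for XKR6, -0.09 to 1.03 for MTMR9, -0.00 to 0.15 for NEIL2, -0.13 to 0.04 for CTSB (0.01 without CD replicate 3), -0.06 to 0.18 for OCLN (-0.01 without CD replicate 1), -0.54 to 0.00 for CD3D, and -0.26 to 0.17 for PDGFRA (0.14 without control replicate 2). CTSB was at 0.00 with upper-quartile scaling, and PTPN11 at -0.01 with the replicate block. The replicate numbers pair no samples. The block removed the calls of PINX1 and COL1A2 and added ESRP1 (1.21). Depth limits BLK, LYN and the B cell genes, where 1 read is 0.0551 to 0.0723 CPM in control.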

Other observations

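In the gene order of the mink RefSeq annotation, 4539 pairs of neighboring protein-coding genes had both genes tested, and in 3 of them both were called at least 8-fold higher in CD. FAM167A and BLK met this by the values they were chosen for (BLK also when set against its floor, at 50.8-fold). The others were RRAD, a small GTPase of the Ras superfamily, with CDH16, a cadherin (log2 5.33 and 3.75), and NEURL3, a ubiquitin ligase, with ARID5A, an RNA-binding protein (log2 4.34 and 4.25). Single genes past 8-fold numbered 119, or 0.98% of those tested. These pairs were picked after their values were seen, and whether neighbors share a rise more often than other genes was not tested.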
